A study of Mus musculus with 12 samples.

Results

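The miRNAs described here are 10 mature miRNAs from the proximal part of the imprinted Dlk1-Dio3 domain on mouse chromosome 12, chosen by name from the 469 miRNAs that the count tables list. They are mmu-miR-337-5p, mmu-miR-337-3p, mmu-miR-540-3p, mmu-miR-431, mmu-miR-433, mmu-miR-127, mmu-miR-434-5p, mmu-miR-434-3p, mmu-miR-136 and mmu-miR-370, and all 10 were found. Star forms, the names that the miRBase release used for the lesser arm, were not among them and were used only as partner arms. The frontal cortex (FCx) and the hippocampus (HP) of male C57BL/6J mice of 8 weeks were studied, with no treatment named in the labels. Tissue from 3 mice was combined for each region before RNA was extracted, and 3 miRNA-Seq libraries were made from each RNA, so n = 3 libraries per region and no difference between animals was measured. The libraries of a region differed in the index, a tag at the end of the 5′ adaptor that lies next to the first base of the miRNA, and are called index 3, index 7 and index 11. Each library was sequenced in a lane of its own and in a shared lane, and the counts of both lanes were summed.

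Genes of the Dlk1-Dio3 domain are expressed from only one parental chromosome. Its protein-coding genes, among them the retrotransposon-derived gene Rtl1, are active on the paternal chromosome, and its noncoding RNAs, among them Meg3, Rian and the miRNAs, on the maternal chromosome. Several of the miRNAs are cut from a transcript that runs opposite to Rtl1, so that they are fully complementary to the Rtl1 mRNA and can guide its cleavage. A miRNA hairpin has a 5p and a 3p arm, and the bases at positions 2 to 8 of the mature miRNA, the seed, lead in the pairing with targets.

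The positions of the hairpins differ from what the name of the group says. On NCBIM37, Rtl1 lies on the minus strand at chr12:110827404-110838540, and all 8 hairpins lie on the plus strand within 32548 bases. The hairpins of mmu-miR-431 (chr12:110828657-110828747), mmu-miR-433 (chr12:110829925-110830048), mmu-miR-127 (chr12:110831056-110831125), miR-434 (chr12:110832716-110832809) and mmu-miR-136 (chr12:110833537-110833598) lie opposite the coding exon of Rtl1. The hairpins of miR-337 (chr12:110823999-110824095) and mmu-miR-540-3p (chr12:110824290-110824356) lie outside Rtl1, beyond its 3′ end. The hairpin of mmu-miR-370 (chr12:110856468-110856546) lies within Rian, 22869 bases downstream of that of mmu-miR-136. The name Rtl1-antisense therefore holds for 5 of the 8 hairpins, which give 6 of the 10 miRNAs, by their position in the annotation.

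**Figure D1:**
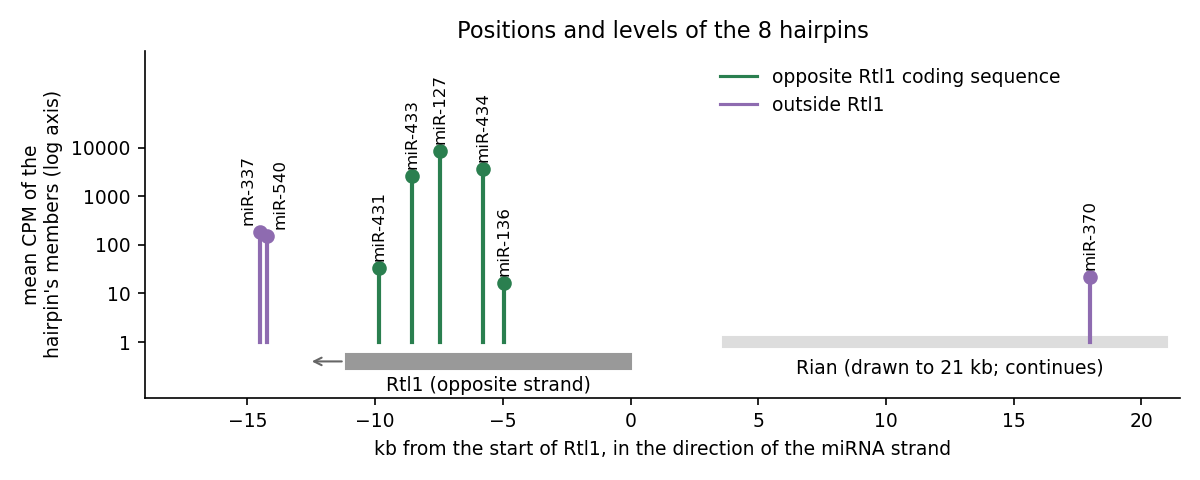
Positions of the 8 hairpins in kb from the start of Rtl1, in the direction of the miRNA strand, and the mean CPM over 6 libraries of the listed miRNAs of each hairpin on a log axis (both arms summed for miR-337 and miR-434). The 5 hairpins opposite the Rtl1 coding exon include the 3 with the highest levels, and miR-370 lies apart from the others, within Rian.

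The sequences of 7 of the miRNAs are shown because the results turn on them: the 3 most abundant ones, the arms whose counts or first bases moved with the index, and mmu-miR-431. They are RefSeq mature sequences, 5′ to 3′, with the seed in capitals, and their positions were found by matching them to NCBIM37.
mmu-miR-337-5p: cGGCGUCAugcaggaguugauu
mmu-miR-337-3p: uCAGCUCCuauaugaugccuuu
mmu-miR-431: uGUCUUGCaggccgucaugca
mmu-miR-433: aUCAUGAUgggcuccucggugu
mmu-miR-127: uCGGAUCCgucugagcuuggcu
mmu-miR-434-5p: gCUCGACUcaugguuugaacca
mmu-miR-434-3p: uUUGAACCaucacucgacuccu
These lie on the plus strand at chr12:110824028-110824049, chr12:110824060-110824081, chr12:110828669-110828689, chr12:110829991-110830012, chr12:110831098-110831119, chr12:110832738-110832759 and chr12:110832775-110832796, in that order. All 10 miRNAs were matched in RefSeq, where mmu-miR-127, mmu-miR-433 and mmu-miR-370 are the 3p arm and mmu-miR-136 and mmu-miR-431 the 5p arm. The 10 miRNAs have 10 different seeds. Among the 1679 RefSeq mature mouse miRNAs, the seed of only mmu-miR-540-3p occurred in another miRNA, mmu-miR-6915-5p.

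The total count was between 391410 and 1461732 per library in FCx and between 3206221 and 4956117 in HP. A miRNA with no count could therefore be present at up to 7.67 CPM, the count scaled to a library total of 1000000, in the smallest library. In the groups of markers that were checked, the 3 brain miRNAs summed to 241123 to 271724 CPM in FCx and 103071 to 167715 CPM in HP. The 8 miRNAs of sensory and epithelial cells summed to 1478 to 5702 CPM in FCx and 24.7 to 134 CPM in HP, where 1 of them had no count, while oligodendrocyte, choroid plexus, blood, vessel and muscle markers overlapped between the regions.

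Together the 10 miRNAs were between 1.25 and 2.17% of all miRNA counts in FCx (1.58% ± 0.51, SD, n = 3) and between 1.03 and 1.69% in HP (1.45% ± 0.36). The regions overlapped, and the order of their means depended on the lane. The mean was 1.529% in FCx and 1.312% in HP in individual lanes, and 1.665 and 1.696% in pooled lanes. Most of the joint level came from mmu-miR-127, mmu-miR-434-3p and mmu-miR-433, which were 93.5 to 97.0% of the summed CPM in every library. Summed over their 5 names, the partner arms reached 556 to 818 CPM in FCx and 520 to 953 CPM in HP. For comparison, the 49 listed miRNAs of the distal cluster, which begins with miR-379, summed to 8528 to 13454 CPM in FCx and 9411 to 13486 CPM in HP, of which mmu-miR-369-5p and mmu-miR-411 were the most abundant.

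mmu-miR-127 had the highest level in all 6 libraries and was at place 17 among the 469 listed miRNAs by mean CPM. Its level was 12289, 6530 and 6347 CPM in FCx at index 3, 7 and 11. In HP it was 9776, 10354 and 5505 CPM in the same order. Index 3 was highest in FCx and index 7 in HP, and the regions overlapped.

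mmu-miR-434-3p followed with 6119, 1202 and 4437 CPM in FCx at index 3, 7 and 11. In HP its level was 4354, 1131 and 3459 CPM. The index 7 library was the lowest in both regions by a wide margin. mmu-miR-433, which shares the transcript opposite Rtl1, had 2527, 3985 and 1809 CPM in FCx at index 3, 7 and 11 and 1709, 4457 and 1050 CPM in HP. Its highest library in each region was thus the one in which mmu-miR-434-3p was lowest, so that mmu-miR-433 exceeded mmu-miR-434-3p at index 7 and was below it at index 3 and index 11.

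The other arm of miR-434, mmu-miR-434-5p, had 294, 321 and 184 CPM in FCx at index 3, 7 and 11. In HP it had 175, 309 and 92.5 CPM. mmu-miR-540-3p stayed within a narrow range of 146, 166 and 198 CPM in FCx and 101, 174 and 116 CPM in HP.

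The arms of miR-337 moved most between libraries. mmu-miR-337-5p had 176, 234 and 12.3 CPM in FCx at index 3, 7 and 11 and 110, 340 and 17.5 CPM in HP. mmu-miR-337-3p had 53.7, 3.42 and 35.3 CPM in FCx and 88.9, 3.23 and 23.7 CPM in HP. The 5p arm was nearly lost at index 11 and the 3p arm at index 7, in both regions. The index 7 values of the 3p arm rest on 5 counts in FCx and 16 in HP.

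The remaining 3 miRNAs were rare. mmu-miR-431 had 17.9, 32.8 and 29.1 CPM in FCx and 25.3, 64.4 and 28.1 CPM in HP at index 3, 7 and 11. mmu-miR-370 had 15.3, 33.5 and 18.4 CPM in FCx and 13.7, 26.2 and 23.9 CPM in HP. mmu-miR-136 had 20.4, 24.6 and 6.13 CPM in FCx and 8.42, 26.4 and 10.4 CPM in HP. Index 7 was the highest library for each of these 3 miRNAs in both regions, and their FCx and HP values overlapped. Over all libraries mmu-miR-136 was counted 48 times in FCx and 200 times in HP, which limits its precision.

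**Figure D2:**
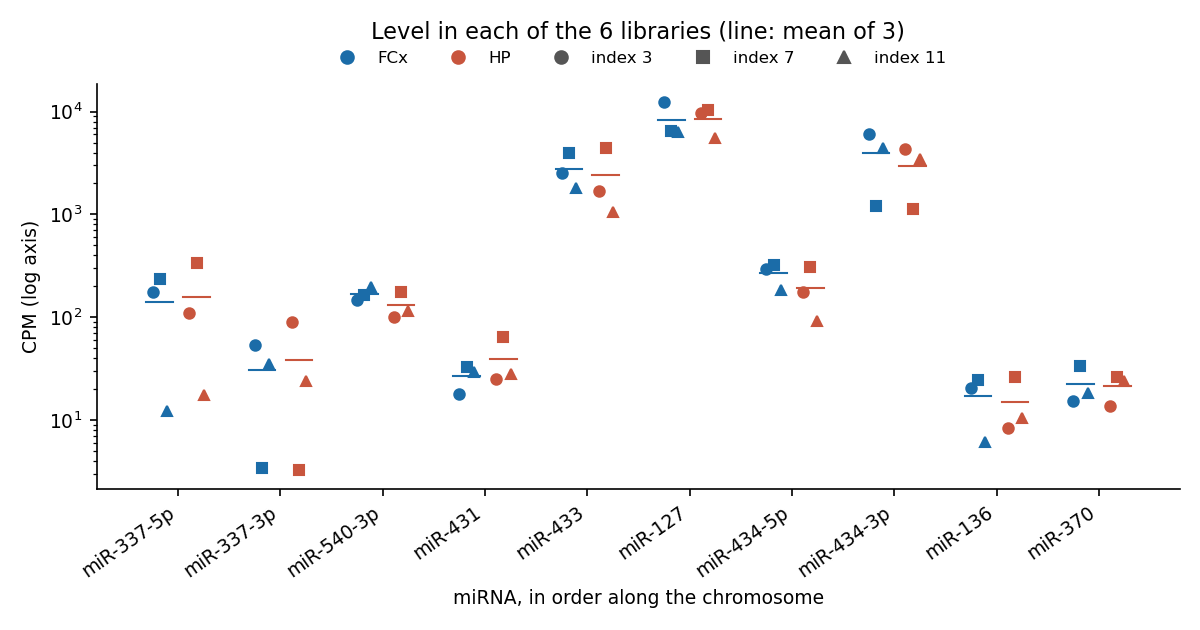
CPM on a log axis of the 10 miRNAs, in order along the chromosome, in the 3 FCx and 3 HP libraries; the shape gives the index and the line the mean of 3 libraries. FCx and HP overlap for each of the 10 miRNAs, whereas libraries of the same index lie close together, as for mmu-miR-434-3p and both arms of miR-337.

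To find out whether the level differed between FCx and HP, the whole count table was fitted with edgeR's quasi-likelihood test. At a Benjamini-Hochberg adjusted p of 0.05, 2 of the 431 miRNAs tested were called (0.464%), and none of the 10 miRNAs was among them. None of the 10 had an unadjusted p under 0.05 either, and 0 of the 10 were called by DESeq2 or by the exact test of edgeR, also at an unadjusted p under 0.05. In a brain region, fewer cells that make a miRNA and less of the miRNA per cell cannot be told apart, and the part of the brain, sensory and epithelial miRNAs given above in these values was not tested. The log2 difference, FCx over HP, ranged from -0.93 ± 1.22 (SE) for mmu-miR-337-3p to 0.18 ± 0.75 for mmu-miR-434-5p. The median over the 10 miRNAs was -0.23, beside -0.37 over all 431 miRNAs. With library totals in place of TMM scaling the medians were 0.14 and 0.03.

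The spread that limits this test is the spread between indexes, and each index occurs once in each region. With the index as a replicate block, 77 of 431 miRNAs were called (17.9%), and again 0 of the 10. The closest was mmu-miR-431, the 5p arm of the hairpin nearest the 3′ end of Rtl1, which was 0.84 ± 0.34 lower in FCx on the log2 scale (edgeR, unadjusted p = 0.0122, adjusted p = 0.0621). It is the only one of the 10 with an unadjusted p under 0.05 in this fit. With the block and library totals its log2 difference was -0.51 (adjusted p = 0.479). Its partner arm, mmu-miR-431*, differed by -1.19 ± 0.35 and was called with the block (adjusted p = 0.00656). The same held for mmu-miR-136*, the 3p arm of miR-136, at -0.81 ± 0.28 (adjusted p = 0.0282). Neither was called without the block (adjusted p = 0.992 for each) nor with the block and library totals (adjusted p = 0.0943 and 0.554).

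Within an index, the libraries of FCx and HP can be compared directly, here by CPM on library totals. mmu-miR-434-5p was higher in FCx at each index, with log2 ratios of CPM of 0.75, 0.05 and 0.99 at index 3, 7 and 11. mmu-miR-434-3p was also higher in FCx at each index, with log2 ratios of 0.49, 0.09 and 0.36. The 95% counting interval of the index 7 ratio of mmu-miR-434-5p included 0 (-0.10 to 0.20), and that of mmu-miR-434-3p was 0.01 to 0.17. In single lanes at index 7 the direction turned for both arms. In the individual lane mmu-miR-434-5p was lower and mmu-miR-434-3p higher in FCx, and the reverse held in the pooled lane. These 2 of the 10 stand beside 68 of 257 miRNAs that averaged 10 CPM or more that were higher in FCx at all 3 indexes (26.5%). None of the 10 was higher in HP at all 3 indexes, beside 51 of the 257 (19.8%).

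The other miRNAs changed direction between indexes. mmu-miR-127 was higher in FCx at index 3 and index 11 (log2 ratios of 0.33 and 0.21) and lower at index 7 (-0.67). mmu-miR-433 had the same pattern with 0.56, -0.16 and 0.78 at index 3, 7 and 11, and so had mmu-miR-540-3p with 0.53, -0.07 and 0.77. The counting intervals of the 3 ratios of mmu-miR-127 were at most 0.1 wide, so counting error was far smaller than the gap between indexes. The lanes differed by more than counting error. For mmu-miR-127 in HP at index 3, the pooled lane exceeded the individual lane by 0.80 on the log2 scale (13405 beside 7696 CPM). The FCx lanes at index 3 were at 12492 and 12202 CPM, so FCx was higher in the individual lane only. The direction of mmu-miR-540-3p at index 3 turned in the same way, while mmu-miR-433 was higher in FCx in both lanes. For mmu-miR-431 the ratios were -0.50, -0.97 and 0.05, and only the interval at index 7 left out 0 (-1.44 to -0.53). Intervals and limits given here cover counting error only, since amplified reads are not independent molecules.

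**Figure D3:**
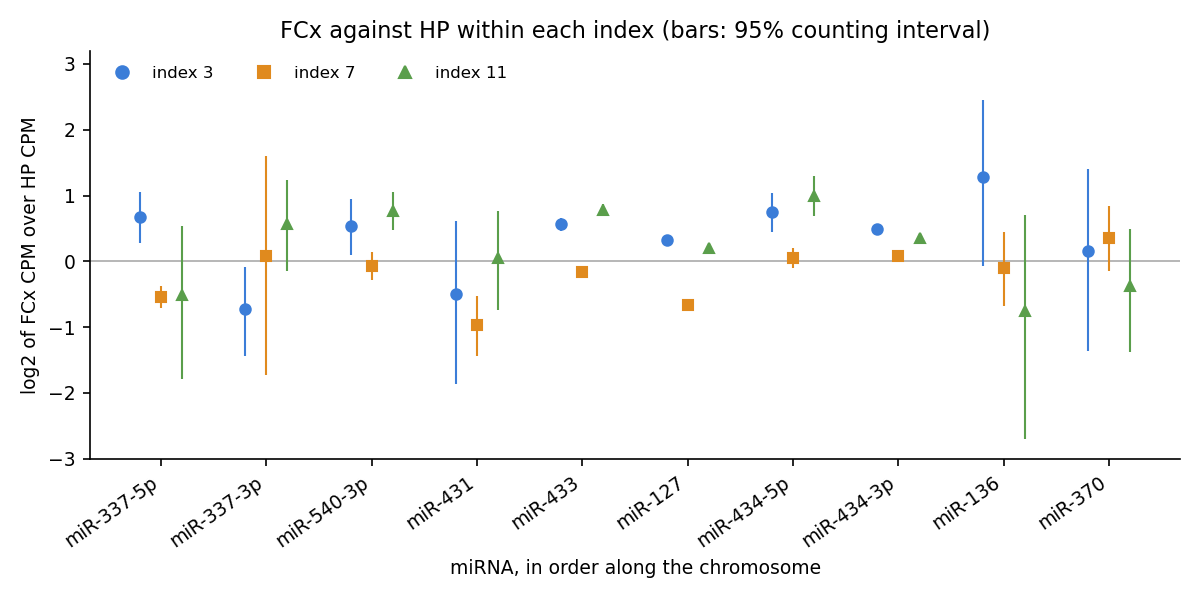
log2 of FCx CPM over HP CPM within each index for the 10 miRNAs, with 95% counting intervals (an interval hidden by its point is narrower than the symbol). With both lanes summed, the 2 arms of miR-434 lie above 0 at each index. In the same way mmu-miR-127, mmu-miR-433 and mmu-miR-540-3p lie above 0 at index 3 and index 11 and below it at index 7.

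Whether the counts differed between indexes was tested with both index terms in a model that also held the region. Each index was a separate library in each region, so the tag and the preparation of its libraries were not tested apart. edgeR's quasi-likelihood test called 264 of 431 miRNAs (61.3%) and 9 of the 10. The smallest adjusted p belonged to mmu-miR-337-5p (1.23e-20), which was 1.37 higher at index 7 and 2.56 lower at index 11 than at index 3 on the log2 scale. mmu-miR-337-3p went the other way at index 7, by -4.34 (adjusted p = 1.32e-16). mmu-miR-434-3p was 1.79 lower at index 7 than at index 3 on the log2 scale (adjusted p = 1.56e-06), and mmu-miR-433 was 1.36 higher (adjusted p = 3.69e-05). The other 5 called miRNAs had adjusted p values from 0.0047 for mmu-miR-434-5p to 0.0457 for mmu-miR-540-3p. mmu-miR-127 was not called (adjusted p = 0.646). It was called with library totals (adjusted p = 0.00871), a scaling with which mmu-miR-540-3p and mmu-miR-370 were no longer called.

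The size of the index effect varied widely among the 10. The median range of CPM over the 3 indexes was 2.12-fold in FCx and 3.22-fold in HP for the 10, beside 4.96-fold and 4.79-fold for the 257 miRNAs that averaged 10 CPM or more (0.5 added to each count). A range of 4-fold or more in both regions was found for 2 of the 10, beside 122 of the 257 (47.5%). These were mmu-miR-337-5p, with 17.99-fold in FCx and 19.3-fold in HP, and mmu-miR-337-3p, with 14.6-fold and 26.8-fold. At the other end, mmu-miR-540-3p ranged 1.35-fold and 1.73-fold and mmu-miR-127 1.94-fold and 1.88-fold. The index with the highest level was the same in FCx and HP for 8 of the 10, beside 201 of the 257 (78.2%). The exceptions were mmu-miR-540-3p and mmu-miR-127.

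The 3 most abundant miRNAs had different patterns over the 6 libraries, although they come from neighbouring hairpins. Among the 173 miRNAs with at least 10 counts in each library, the patterns most like that of mmu-miR-127 were those of mmu-miR-219 (r = 0.97), mmu-miR-409-5p and mmu-miR-376a. For mmu-miR-434-3p they were mmu-miR-652 (r = 0.99), mmu-miR-101b and mmu-miR-203, and for mmu-miR-433 mmu-miR-1224 (r = 0.98), mmu-miR-31 and mmu-miR-760. Of the 10 miRNAs only 5 had enough counts to be among the 173, so a list of 10 could easily hold none of them. None was among the 10 most like any of the 3, a count that therefore says nothing about the 10 miRNAs. Between mmu-miR-433 and mmu-miR-434-3p r was -0.79, and between mmu-miR-433 and mmu-miR-434-5p it was 0.96. All these r values are over 6 libraries that share RNA and indexes, and describe them only.

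A ratio of the arms of 1 hairpin does not depend on how libraries are scaled. For 7 of the hairpins both arms are counted, either among the 10 miRNAs or as a partner arm. The 3p arm exceeded the 5p arm in all 6 libraries for miR-540, miR-433, miR-127, miR-434 and miR-136. For miR-127 the 3p share of the counts of both arms was between 95.4 and 98.5%. For miR-433 it was between 92.3 and 98.9%, and for miR-540 between 79.1 and 91.9%.

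mmu-miR-136 itself was the lesser arm of its hairpin. In FCx mmu-miR-136* had 365, 365 and 129 CPM at index 3, 7 and 11, and in HP 391, 639 and 156 CPM. The 3p share of the hairpin, mmu-miR-136*, was 93.7 to 97.9%, which is 14.6 to 45.6 counts of the star form for each count of mmu-miR-136. By counts the arms of miR-431 were nearly equal, with a 3p share between 34.5 and 58.7%. The 3p arm had more counts than the 5p arm in 2 of 6 libraries. The alignments to the genome, described below, differed from this, with 25 on mmu-miR-431 and 1202 on mmu-miR-431*. Their counts were 588 and 571, and the reason for the gap was not tested. The name without the star thus did not mark the more frequent arm of miR-136 in any library.

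In miR-337 the more frequent arm changed with the index. In FCx the 3p share was 23.3% at index 3 (95% Wilson interval 15.8 to 33.1%), 1.44% at index 7 (0.617 to 3.33%) and 74.2% at index 11 (56.8 to 86.3%). In HP it was 44.7% (40.9 to 48.6%), 0.942% (0.581 to 1.52%) and 57.5% (49.9 to 64.7%). The regions had the same order of indexes, and the intervals of the 3 indexes did not overlap within either region when both lanes were summed. In single lanes of HP the intervals of index 3 and index 11 overlapped, and at index 3 the 3p share was 52.3% in the individual lane and 35.8% in the pooled lane, so the more frequent arm differed between lanes of that library. The 5p arm was thus counted 62.3 times as often as the 3p arm at index 7 in FCx, and less often than the 3p arm at index 11 in both. In the individual lane of the FCx library at index 7 no 3p read was found beside 170 reads of the 5p arm (upper limit of the 3p share 2.21%), and in its pooled lane 5 beside 172.

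miR-434 kept its 3p arm as the more frequent one but not its ratio. In FCx the 3p arm made up 95.4% at index 3, 78.9% at index 7 and 96.02% at index 11. HP had 96.1, 78.5 and 97.4% in the same order. This is 20.7, 3.74 and 24.0 counts of mmu-miR-434-3p for each count of mmu-miR-434-5p in FCx and 24.9, 3.66 and 37.3 in HP. Both lanes of each library showed the drop at index 7, with 81.5 and 75.7% in FCx and 79.3 and 77.3% in HP.

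**Figure D4:**
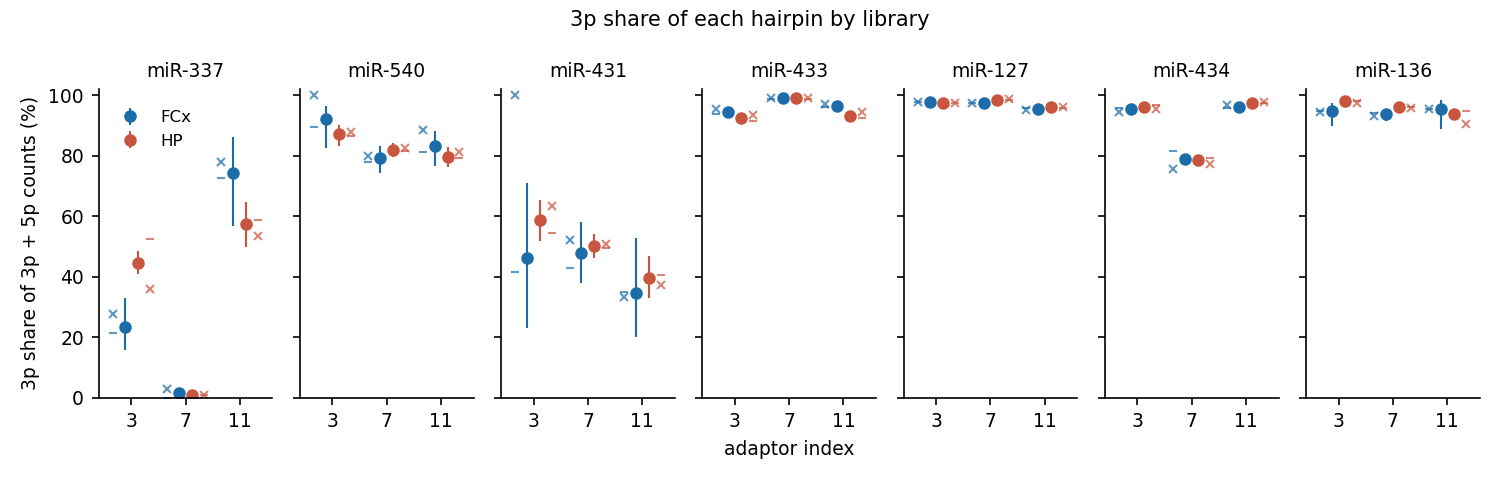
Share of 3p counts among the counts of both arms for 7 hairpins, by index, in FCx and HP; points are the 2 lanes summed with 95% Wilson intervals, dashes the individual and crosses the pooled lanes. The share of miR-337 runs from 0.942 to 74.2% with the index, that of miR-434 drops to 78.9 and 78.5% at index 7, and those of miR-127 and miR-136 stay above 93%.

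Such changes were common among all hairpins. Of 103 pairs of arms in the count tables with a summed mean of at least 10 CPM, 58 had an arm ratio that ranged 4-fold or more over the indexes in both regions (56.3%), as had 3 of the 7 hairpins (miR-337, miR-434 and miR-433). The more frequent arm differed between libraries in 30 of the 103 pairs (29.1%) and in 2 of the 7 (miR-337 and miR-431). The median range was 7.41-fold in FCx and 7.11-fold in HP over all pairs, and 2.79-fold and 3.05-fold for the 7. The range of miR-337, 172-fold in FCx and 138-fold in HP, was at place 3 and place 5 among the 103.

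Between regions, no arm ratio was shown to differ. The log2 ratio of 3p over 5p was -2.06 ± 3.73 (SD, n = 3) in FCx and -2.18 ± 3.91 in HP for miR-337 (two-sided exact permutation p = 1.0). The largest difference, FCx minus HP, was -0.61 for miR-136 (exact permutation p = 0.3, adjusted over 7 hairpins p = 0.817). With 3 libraries against 3 the smallest possible p is 0.1, so the test could not have passed a threshold of 0.05. At 1 and the same index, the arm ratio of miR-434 in FCx and HP differed by at most 1.55-fold and that of miR-433 by at most 1.97-fold. The largest such differences were 2.70-fold for miR-136 and 2.61-fold for miR-337.

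The genome alignments show where the reads begin. On the 16 arms of the 8 hairpins there were 223664 alignments on the strand of the hairpins and 1 on the opposite strand. Within Rtl1, alignments of 18 nt or more numbered 207091 in miRNA hairpins and 25 outside them on the strand of the miRNAs, and none was found on the strand of Rtl1 itself. Alignments of 22 nt made up 93.4% of those on the 10 miRNAs, and alignments of 19 and 20 nt were nearly absent from the files, so read lengths and 3′ ends are not described. Of the 10 miRNAs 2 had far fewer alignments than counts. mmu-miR-431, with a RefSeq length of 21 nt, had 25 alignments but 588 counts, and mmu-miR-540-3p, of 20 nt, 784 alignments but 2084 counts, and the reason was not tested. For the other 8 miRNAs the alignments were 0.94 to 1.01 times the counts.

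The most frequent first base was the RefSeq start for 9 of the 10 miRNAs, for mmu-miR-431 on only 25 alignments. For mmu-miR-127 97.5%, for mmu-miR-434-3p 97.6% and for mmu-miR-433 96.5% of all alignments began there, and the share was between 93.6 and 98.6% in each library. mmu-miR-136 was the exception, with 43.5% of its 232 alignments beginning 3 bases upstream and 35.3% at the RefSeq start. This order came from HP at index 7 (131 alignments) and, by 30.8 against 25.6%, at index 11 (39 alignments). In the other 4 libraries the RefSeq start was the more frequent. These held few alignments, 7, 29 and 1 in FCx at index 3, 7 and 11 and 25 in HP at index 3. Of all alignments on the partner arm of mmu-miR-136, mmu-miR-136*, 51.8% began 1 base downstream of the RefSeq start. With both lanes summed, that start was the more frequent only at index 7, with 62.8% in FCx and 62.8% in HP. The RefSeq start led at index 3 (65.5% in FCx, 53.6% in HP) and in HP at index 11 (48.8 beside 32.2%). In FCx at index 11 the starts were nearly equal, with 42.2% at the RefSeq start and 41.0% downstream of 83 alignments. In the pooled lane of that library the downstream start led, by 42.9 against 38.1% of 21 alignments.

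mmu-miR-434-5p had its first base in either of 2 places, and the share depended on the index. At the RefSeq start began 6.20, 61.6 and 72.3% of its alignments in FCx at index 3, 7 and 11, and 13.4, 71.2 and 75.9% in HP. Nearly all others began 1 base upstream, which made 93.8, 37.9 and 26.8% for FCx. HP had 86.3, 28.7 and 23.3% there. The seed of the upstream form is shifted by 1 base, as the reference sequence from that start shows, again with the bases at positions 2 to 8 in capitals (chr12:110832737-110832758, plus strand).
mmu-miR-434-5p from 1 base upstream: aGCUCGACucaugguuugaacc
The upstream form was thus the more frequent at index 3 and the RefSeq form at index 11, in both regions. At index 7 the order depended on read length. With alignments of 18 nt or more, 40.8% in FCx and 38.6% in HP began at the RefSeq start at index 7, beside 2.86 and 5.49% at index 3 and 72.1 and 76.7% at index 11. The lanes of a library differed by less than 8 points, and at index 3 both lanes had mostly the upstream form (93.2 and 94.9% for FCx, 86.8 and 85.7% for HP).

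**Figure D5:**
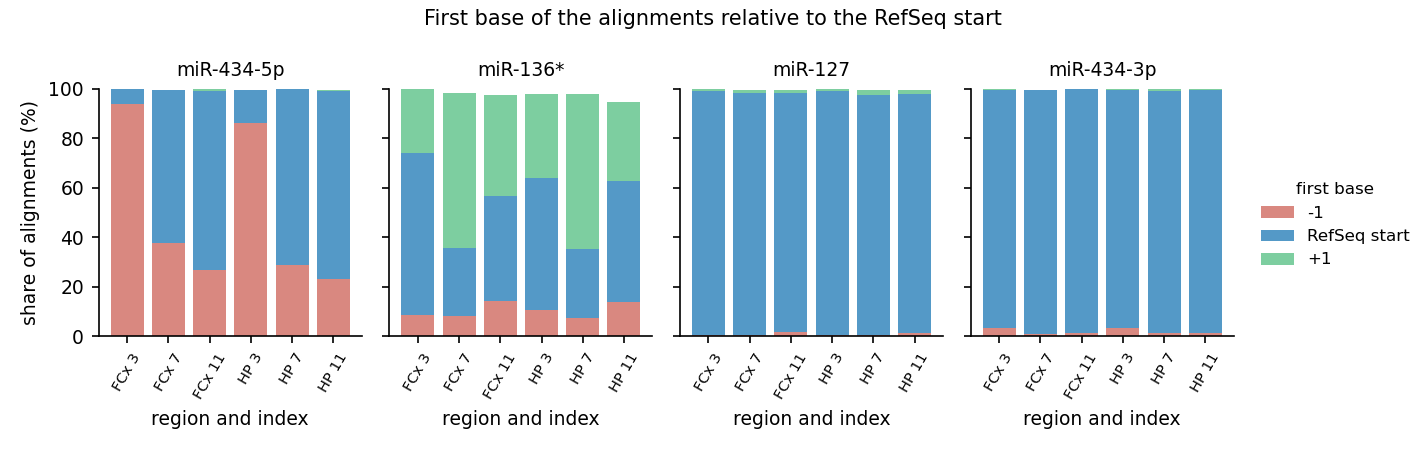
Share of alignments by first base (1 base upstream of the RefSeq start, at it or 1 base downstream) in each library for mmu-miR-434-5p, its partner arm mmu-miR-434-3p, mmu-miR-136* and mmu-miR-127. Over alignments of all lengths, the upstream start of mmu-miR-434-5p has 93.8 and 86.3% at index 3 and at most 37.9% at the other indexes. With alignments of 18 nt or more, 40.8% in FCx and 38.6% in HP begin at its RefSeq start at index 7. mmu-miR-127 and mmu-miR-434-3p begin at the RefSeq start in over 96% in each library.

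Among 41 arms of the whole domain with at least 10 alignments in each library, the share at the RefSeq start ranged by 20 points or more over the indexes in both regions for 6 (14.6%). Of the 5 of these arms that are among the 10 miRNAs, mmu-miR-434-5p was the only such arm, with ranges of 66.1 points in FCx and 62.5 points in HP. The share with the most frequent first base was not shown to differ between FCx and HP for any of 9 arms with at least 10 alignments in each library (exact permutation p of 0.5 or more for each). For mmu-miR-434-5p it was 46.7% ± 35.5 (SD, n = 3) in FCx and 53.5% ± 34.8 in HP, and this spread is that between the indexes.

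Of the other genes of the domain, the 8 proximal miRNAs outside the 10 and their partner arms gave no call between FCx and HP with or without the block (edgeR, 0 of 8, and 0 at an unadjusted p under 0.05). Of these, mmu-miR-341 (222 CPM), mmu-miR-673-5p (139 CPM), mmu-miR-770-3p (131 CPM) and mmu-miR-665 (80.6 CPM) had a mean of at least 10 CPM. mmu-miR-665 was higher in FCx within each index, by log2 ratios of 1.07, 0.17 and 1.39. So was mmu-miR-770-3p, by 0.65, 0.08 and 0.09, while mmu-miR-341 and mmu-miR-673-5p changed direction between indexes. At index 7 the counting intervals included 0 for mmu-miR-665 (-0.04 to 0.38) and mmu-miR-770-3p (-0.21 to 0.36). Among the 257 miRNAs that averaged 10 CPM or more, 68 were higher in FCx at all 3 indexes (26.5%). In the distal cluster 0 of 47 tested were called without the block (0 at an unadjusted p under 0.05), and with it 6 were lower and 0 higher in FCx, beside 55 lower and 22 higher of all 431. With the block and library totals 2 of the 47 were lower and 0 higher, beside 20 and 36 of the 431. The median log2 difference of the distal cluster was -0.57, beside -0.23 for the 10 and -0.37 over all miRNAs. With library totals these medians were -0.09, 0.14 and 0.03.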

How the data were processed

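Small RNA of mouse FCx and HP was measured by miRNA-Seq. According to the methods, the authors removed the index and adaptor, kept reads of 14 nt or longer, and used Bowtie with up to 2 mismatches for alignment to miRBase 11 and to NCBIM37. The count values, as deposited by the authors, are whole numbers of reads per mature miRNA in each of 12 lane files, without normalization. The genome files give start, end and strand of each alignment, and the score that the authors deposited with it was not used.

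The individual and pooled runs were added up for each of the 6 libraries. FCx and HP were compared with edgeR 4.0.16 (quasi-likelihood, TMM, Benjamini-Hochberg) in R 4.3.3 on 431 miRNAs, each with a total of 2 or more counts in FCx or HP; DESeq2 1.42.0 was an alternative, and the code was tested on simulated data. Adjusted p values come from this edgeR test unless another is named. The index pairs the libraries: deviations from the region means correlated with r of 0.75, 0.84 and 0.83 for the same index, and -0.58 to -0.24 for different ones. Alternatives were other scalings, filters and tests, each lane alone, a replicate block of the index and leaving out each library. Arm ratios had 0.5 added to each count. RefSeq sequences were matched to NCBIM37 by exact identity. Since libraries of a region share RNA, p values measure technical spread. Depth was 391410 to 4956117 counts per library. Python 3.11.15, scipy 1.17.1 and pandas 2.3.3 served for the other steps.

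The members, lists and tests were chosen with earlier results of these data known. Named with values were all 10 miRNAs and their partner arms, other proximal miRNAs that averaged 10 CPM or more, the 2 most abundant of the distal cluster and, for the 3 most abundant miRNAs, the 3 with the most similar pattern; mmu-miR-6915-5p was named after its seed was seen.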

Additional observations from a re-analysis of the deposited data

Results flagged for a closer look

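The 5p arm of miR-370 is not listed in the count tables, but the genome alignments hold 571 alignments on it over the 6 libraries, a signal outside the data compared above. On the 3p arm, mmu-miR-370, there were 335. In FCx the 5p arm had 28, 32 and 10 alignments at index 3, 7 and 11, beside 4, 48 and 11 on the 3p arm. In HP it had 203, 205 and 93, beside 48, 134 and 90. The 5p arm thus exceeded the 3p arm in 4 of the 6 libraries when alignments of all lengths were taken. For HP at index 11 this turned with alignments of 18 nt or more, 80 on the 5p arm beside 84 on the 3p arm. Of the 571 alignments 82.1% began 4 bases upstream of the RefSeq start. No group had more than 3 libraries, so single libraries were not tested as outliers.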

How the results depend on the processing

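None of the 10 miRNAs was called between FCx and HP in any of the 23 fits (lowest adjusted p 0.0621, mmu-miR-431 with the replicate block). None of the 7 arm ratios and none of the 9 first-base shares was called, but none could have been. The smallest possible p of their exact permutation test was 0.1 with 3 libraries against 3, and no lower with 1 left out. For the arm ratios with the replicate block, tested by exact sign flips of 3 pairs, it was 0.25. The sign was kept in all fits for mmu-miR-434-5p (log2 FCx over HP 0.09 to 0.74), mmu-miR-431 (-1.1 to -0.32) and mmu-miR-127 (-0.57 to -0.03). The others changed sign in some fits, and the cause was not tested beyond the construction of each fit. Closest to the threshold among these was mmu-miR-337-3p with the block in individual lanes. There edgeR gave -0.86 (unadjusted p = 0.0278, adjusted p = 0.133). With DESeq2 size factors, library totals and DESeq2's test mmu-miR-433 had 0.22, 0.21 and 0.22, mmu-miR-434-3p 0.09, 0.39 and 0.09, mmu-miR-136 0.09, 0.18 and 0.1, and mmu-miR-370 0.01, 0.09 and 0.02. Without a filter mmu-miR-433, mmu-miR-434-3p and mmu-miR-136 had 0.21, 0.05 and 0.07, and with at least 10 counts in each library the first of these had 0.15 and mmu-miR-434-3p 0.07. In individual lanes mmu-miR-433 had 0.03 and mmu-miR-434-3p 0.04, and in pooled lanes mmu-miR-540-3p had -0.01.

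With the index as a replicate block mmu-miR-540-3p had -0.00302. With the block and library totals mmu-miR-433, mmu-miR-434-3p, mmu-miR-136 and mmu-miR-370 had 0.4, 0.31, 0.11 and 0.07, and with the block in DESeq2 the first 3 had 0.25, 0.17 and 0.06. With the replicate block and index 3 left out mmu-miR-337-3p had 0.03 and mmu-miR-433 0.08. Without index 7 mmu-miR-433 had 0.28 and mmu-miR-434-3p 0.03. Without index 11 mmu-miR-337-5p had 0.06, mmu-miR-433 0.21, mmu-miR-434-3p 0.29, mmu-miR-136 0.45 and mmu-miR-370 0.43. The block within lanes was added after the data were seen: mmu-miR-433 had 0.14 and mmu-miR-434-3p 0.06 in individual lanes, and mmu-miR-540-3p -0.08 in pooled lanes. The block gave calls for mmu-miR-431* and mmu-miR-136* and changed no other call among the 10 and their partner arms.

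Leaving out 1 library at a time, log2 FCx over HP was -0.95 to 1.03 for mmu-miR-337-5p, -1.16 to 0.6 for mmu-miR-337-3p, -0.02 to 0.48 for mmu-miR-540-3p, -0.26 to 0.75 for mmu-miR-433, -0.39 to 0.53 for mmu-miR-434-3p, -0.5 to 0.45 for mmu-miR-136 and -0.59 to 0.38 for mmu-miR-370. The arm ratio, FCx minus HP, was -2.12 to 2.07 for miR-337, -0.19 to 0.55 for miR-540, -0.22 to 1.43 for miR-433, -0.61 to 0.12 for miR-127 and -1.31 to 0.57 for miR-434. The first-base share, in points, was -3.75 to 1.81 for mmu-miR-540-3p, -0.34 to 0.72 for mmu-miR-127, -26.82 to 13.49 for mmu-miR-434-5p, -0.31 to 0.87 for mmu-miR-434-3p, -20.9 to 9.18 for mmu-miR-431*, -4.16 to 5.68 for mmu-miR-127* and -9.49 to 10.16 for mmu-miR-136*. The arm ratio of miR-337 was -0.97 in individual lanes, that of miR-431 0.24 in pooled lanes, and the share of mmu-miR-431* 1.55 with alignments of 18 nt or more.

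For the index, 9 of the 10 miRNAs were called, beside 264 of all 431. With at least 10 counts in each library 5 of the 10 were tested and 2 called (mmu-miR-433 and mmu-miR-434-3p), beside 139 of all 173. With library totals 8 of the 10 were called, which are 7 of the 9 and mmu-miR-127, beside 262 of 431. In pooled lanes 6 of the 10 were called, beside 214 of 388. The counts of all miRNAs called between regions went from 2 to 12 (DESeq2), 9 (exact test), 8 (no filter), 7 (without FCx replicate 3 or HP replicate 2) and 0 (at least 10 counts, pooled lanes, without HP replicate 1 or 3, each with 6 to 18 at an unadjusted p under 0.05), and in the other fits with the block from 77 to between 30 and 68. At the depth of the FCx libraries, 3 counts are 2.05 to 7.67 CPM, so mmu-miR-337-3p at index 7 and mmu-miR-136 could not be measured closely.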
